A study of Mus musculus with 4 samples.

Results

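The liver endothelial cell genes described here were 44 genes known from blood vessel and liver sinusoid biology, picked by symbol from the 20642 gene symbols of a PRO-seq table of mouse liver. PRO-seq (precision nuclear run-on sequencing) maps the RNA that engaged RNA polymerases are making in isolated nuclei. The study asked how loss of HDAC3, a histone deacetylase that works as a transcriptional corepressor, alters polymerase at promoters and along genes. Each symbol had 1 transcript row, so the step of the selection rule that keeps the row with the largest mean promoter-proximal value changed nothing. The rule used no other measured value, but the list was drawn up with earlier results of these libraries known, so the changes below describe the genes rather than test the choice of them.

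All mice were C57BL/6, carried the *Alb-Cre* transgene and were 14 days old. The WT mice were *Hdac3* +/+ and the KO mice *Hdac3* fl/fl or fl/-, with 2 libraries of each genotype (WT1 and WT2, KO1 and KO2) labelled as biological replicates. Nuclei of several livers were pooled for each library. Cre was driven by the albumin promoter, which is active in hepatocytes, so the endothelial cells of the KO livers were not the cells in which the driver is known to act. The fl/- animals carried their null allele in every cell. In nuclei pooled from whole livers, a larger share of endothelial nuclei and more polymerase per endothelial nucleus cannot be told apart. The paper scaled reads to each library's total of uniquely mapped reads, and it describes no spike-in for these libraries. A higher value below is therefore higher relative to the rest of its library, and absolute amounts were not measured.

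Endothelial cells line all blood vessels, and in the liver most of them form the fenestrated wall of the sinusoids, where scavenger receptors clear material from the blood. They respond to VEGF and angiopoietin through receptor tyrosine kinases, are held together by specialised junction proteins, and owe their identity to ETS, SOXF and GATA transcription factors. Liver endothelium also sends signals to its neighbours. The Wnt ligands WNT2 and WNT9B and the Wnt amplifier RSPO3 from central vein endothelium maintain the pericentral hepatocyte program, and BMP2 from sinusoidal cells drives hepcidin expression.

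The promoter-proximal value of a gene is the number of normalized reads in the fullest 50 bp window near its start, and the gene body value is the number of normalized reads from downstream of the start to the end of the gene. The libraries held between 16628518 (KO2) and 26190040 (WT2) reads on genes, and promoter-proximal windows took 10.3% and 9.38% of them in WT1 and WT2 against 13.6% and 17.0% in KO1 and KO2. *Hdac3* itself had 665, 648, 609 and 582 gene body reads in WT1, WT2, KO1 and KO2. Its log2 fold change of -0.14 did not pass the test (limma, Benjamini-Hochberg adjusted p = 0.413). A floxed allele loses part of a gene and reads over the rest are still counted, so this gene did not check the labels. With 2 libraries against 2, an exact permutation test of a single value cannot give a two-sided p below 0.33.

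All 44 genes were in the table, and 42 of them were active, meaning that they held reads in the promoter-proximal window and that their gene bodies averaged more than 4 normalized reads per kb. A total of 12705 gene symbols met these criteria. *Cd34*, a surface sialomucin, fell just under the density cutoff, and *Vwf*, which encodes the clotting protein von Willebrand factor, lay just above it. *Cd34* nevertheless had higher gene body values in both KO libraries (45.9, 61, 107 and 98.7 in WT1, WT2, KO1 and KO2). *Erg*, an ETS factor of endothelial identity, had 0 promoter-proximal reads in every library at the start used for counting. Its gene body values were 4774, 4900, 8547 and 7854 in the same order, again higher in both KO libraries. RefSeq lists 3 starts for *Erg*, of which 1 lies 71.0 kb downstream of the counted one and another 56.2 kb upstream.

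Promoter sequences are shown for the 4 members with the largest gene body increases among those that met these conditions. A promoter entry existed in RefSeq, its start matched the counted start, and the upstream bases held no exon of the gene in GENCODE. Exons of RefSeq were not checked. The RefSeq span of *Tek* begins at 94739086, inside its printed window. The spans of *Flt1* (to 147726438) and *Wnt9b* (to 103775272) reach past theirs, so these windows lie within the gene as RefSeq places it. The sequences are the 250 bases before the matched start on GRCm38.p6, written 5′ to 3′ on the strand of the gene. Capitals mark the ETS core AGGAAG or CCGGAA on either strand, since ETS factors such as ETS1, FLI1 and ERG are among the members. *Tek*, the angiopoietin receptor, lies on the plus strand with these bases at chr4:94739039-94739288, *Flt1*, a VEGF receptor, on the minus strand at chr5:147726012-147726261, *Wnt9b* on the minus strand at chr11:103749822-103750071 and *Eng*, which encodes the BMP co-receptor endoglin, on the plus strand at chr2:32646345-32646594.
Tek: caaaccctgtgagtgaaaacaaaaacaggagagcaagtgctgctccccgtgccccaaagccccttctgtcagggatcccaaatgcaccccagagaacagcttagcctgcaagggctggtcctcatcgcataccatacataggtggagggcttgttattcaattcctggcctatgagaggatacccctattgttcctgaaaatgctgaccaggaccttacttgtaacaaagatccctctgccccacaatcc
Flt1: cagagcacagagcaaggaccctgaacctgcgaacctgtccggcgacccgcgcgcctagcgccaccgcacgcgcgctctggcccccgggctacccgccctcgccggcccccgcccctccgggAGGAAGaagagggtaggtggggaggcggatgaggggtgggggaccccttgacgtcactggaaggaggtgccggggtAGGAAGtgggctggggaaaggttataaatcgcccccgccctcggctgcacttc
Wnt9b: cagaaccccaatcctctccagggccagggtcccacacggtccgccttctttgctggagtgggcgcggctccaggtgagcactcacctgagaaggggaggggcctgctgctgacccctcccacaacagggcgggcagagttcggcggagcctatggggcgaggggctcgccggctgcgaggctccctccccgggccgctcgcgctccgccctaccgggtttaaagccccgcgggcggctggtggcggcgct
Eng: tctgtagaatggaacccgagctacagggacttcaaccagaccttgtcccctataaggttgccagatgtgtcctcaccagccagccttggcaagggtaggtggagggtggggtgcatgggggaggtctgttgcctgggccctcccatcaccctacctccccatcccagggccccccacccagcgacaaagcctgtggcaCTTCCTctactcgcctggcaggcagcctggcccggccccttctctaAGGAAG
*Flt1* held 2 matches to these letters, starting 129 and 53 bases before its start, and *Eng* held 2, starting 52 and 6 bases before it. The windows of *Tek* and *Wnt9b* held 0. A promoter entry existed for 23 of the 44 members. AGGAAG was found on either strand in 13 of these 23 (56.5%), against 32.4% of the active symbols with an entry and 29.5% of all 32851 promoters of the same length. The letters of the other ETS form, CCGGAA, were found in 1 of the 23 (4.35%), *Kdr*, against 24.5% of active symbols and 12% of all promoters. The SOX core ACAATG was found in 2 members (8.70%, against 7.78% of active symbols and 10.7% of all promoters), TGATAA or AGATAA, the GATA letters, in 3 (13.0%, against 11.6% and 16.6%), and TATAAA in 3 (13.0%, against 8.18% and 12.4%). The E-box CACGTG was found in 0 members, against 9.75% of active symbols and 6.02% of all promoters. Motifs were searched one by one and may overlap each other.

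In WT liver, the members ranged from weakly to very strongly transcribed. Among active genes ranked by the mean gene body density of the 2 WT libraries, 32 of the 42 active members lay above the 50th percentile and 16 above the 90th percentile. The densest was *Egfl7*, a secreted regulator of vessel tubes, with 648 normalized reads per kb in WT, followed by *Gpr182*, a scavenging chemokine receptor of sinusoidal endothelium, with 522. *Ets1* (239.6) and *Stab2* (222) came next. The lowest active members on this scale were the central vein ligand genes *Wnt9b* (5.84) and *Rspo3* (6.89), the capillary sialomucin gene *Emcn* (8.17) and *Vwf* (4.36). The defining markers of endothelium, *Kdr*, *Cdh5*, *Pecam1* and *Tek*, and those of sinusoidal endothelium, *Stab1*, *Stab2*, *Lyve1* and *Clec4g*, all had reads in every library.

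**Figure D1:**
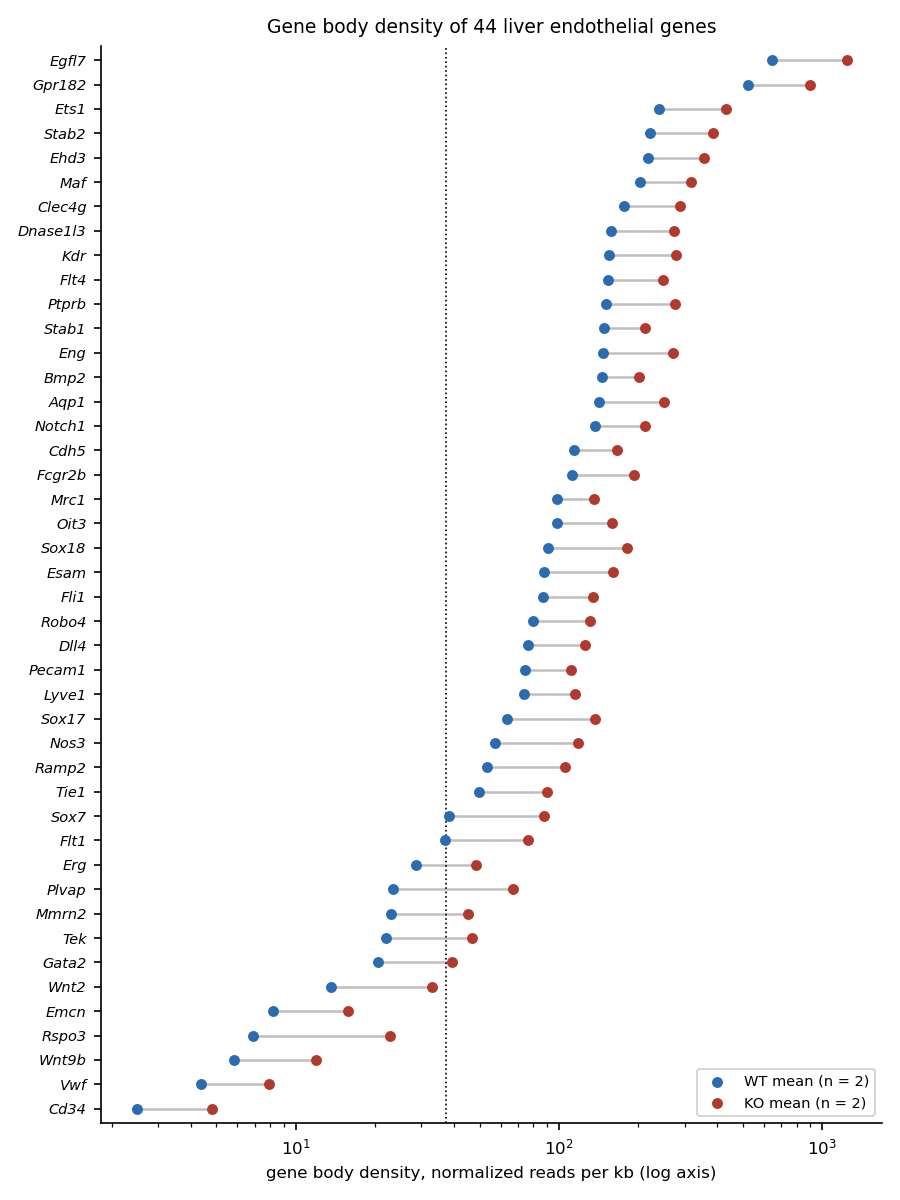
Gene body density of the 44 liver endothelial genes in normalized reads per kb (x, log axis), with the WT mean and the KO mean (n = 2 libraries each) joined by a line; the dotted line is the median of active genes over the 4 libraries, 37.1 normalized reads per kb. Every KO mean lies to the right of the WT mean, from *Cd34* (2.49 to 4.79) to *Egfl7* (648 to 1238).

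Polymerase on the bodies of endothelial genes was higher in *Hdac3* KO liver for every member. Among the 42 active members, 37 rose and 0 fell, where 10.4% of all active genes rose and 11.4% fell (limma, Benjamini-Hochberg adjusted p below 0.05 and an absolute log2 fold change above 0.6). All 42 passed the adjusted p alone with a higher KO value (17.0% of active genes did, and 22.1% passed with a lower one), and in all 42 both KO libraries lay above both WT libraries, which was so for 27.6% of active genes. The members' median log2 fold change was 0.85 and ranged from 0.46 to 1.73, beside a median of -0.09 over all active genes. Summed over the 44 members, gene body reads came to 164883 and 177684 in the WT libraries and 310456 and 278547 in the KO libraries. The sums were 1.72 times as high in KO as in WT, and ratios of 1 KO to 1 WT library ran from 1.57 to 1.88, while the WT sums differed by 1.08 times and the KO sums by 1.11 times. The members took 0.727% of all gene body reads in WT and 1.37% in KO.

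**Figure D2:**
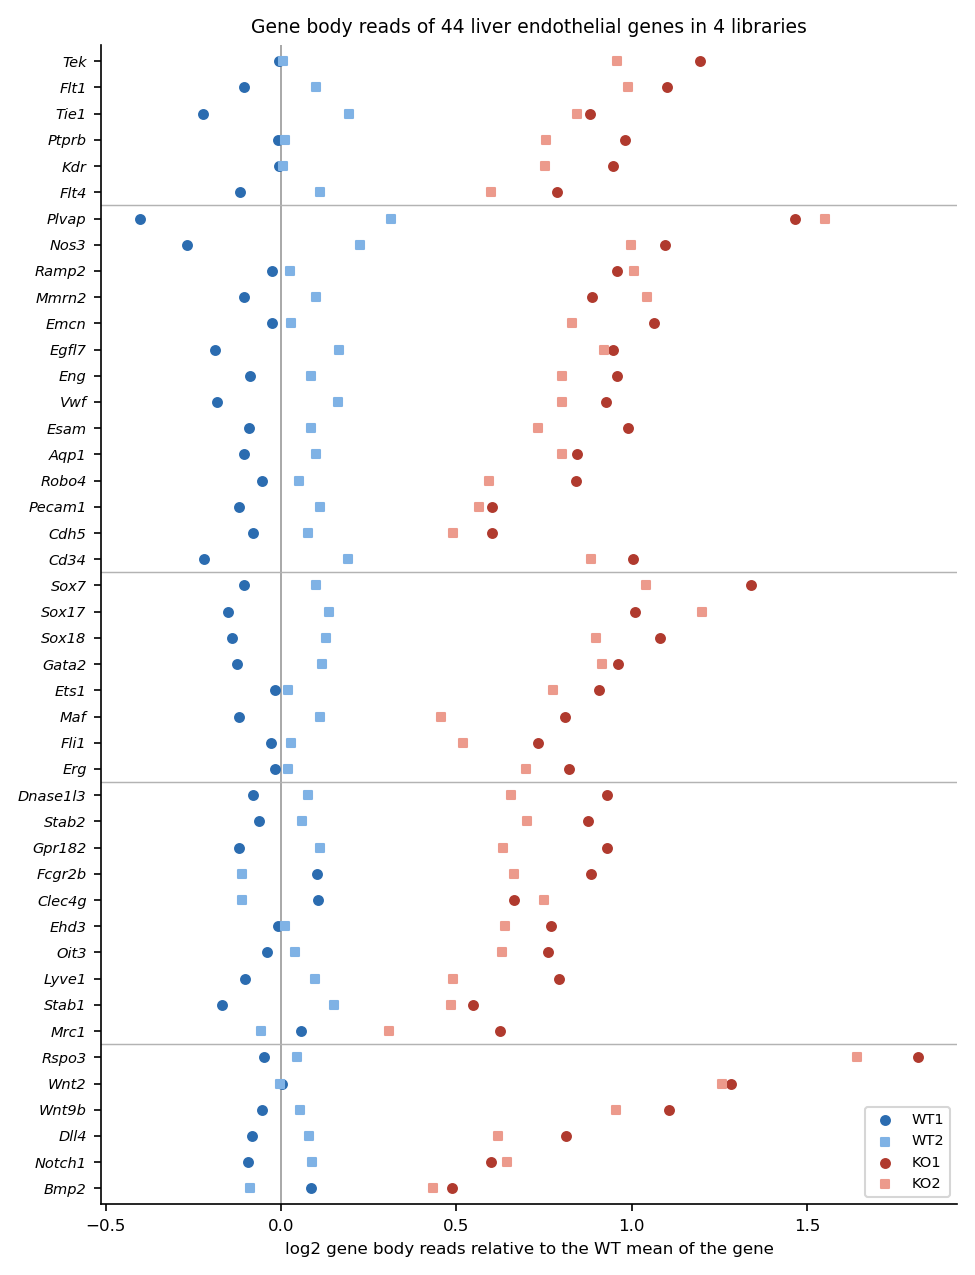
Gene body reads of each of the 44 genes in each library as log2 relative to the gene's WT mean (x); rows are genes, grouped from top to bottom as receptors and phosphatase, junction, surface and vessel genes, transcription factors, sinusoidal scavenger and lectin genes, and angiocrine ligands and Notch. Both KO libraries lie to the right of both WT libraries in every row, farthest for *Rspo3* and least for *Mrc1* and *Bmp2*.

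The angiocrine ligands held both the largest and the smallest gene body change. *Rspo3* (chr10:29453106-29535867), whose product amplifies Wnt signals, had 545, 582, 1986 and 1759.7 normalized gene body reads in WT1, WT2, KO1 and KO2, and this order of libraries is kept below. Both KO values were more than 3 times the WT values, a log2 fold change of 1.73 (SE 0.12) with an adjusted p of 1.72e-10 by limma. *Wnt2* (chr6:17985474-18032772), a Wnt ligand of liver endothelium, had 553, 551, 1343 and 1319 reads and a log2 fold change of 1.27 (SE 0.12). *Wnt9b* had 120.5, 130, 269 and 243 reads and a log2 fold change of 1.03 (SE 0.18). In both Wnt genes the libraries of a genotype lay close together and the genotypes did not overlap. *Dll4*, a Notch ligand of endothelial cells, had 638, 714, 1187 and 1039 reads (log2 fold change 0.72, SE 0.13), and *Notch1*, its receptor, rose by 0.62 on the log2 scale. *Bmp2* had 1346, 1194, 1780.0 and 1716 reads and a log2 fold change of 0.46 (SE 0.12), which passed the adjusted p of limma (0.0024) but not the fold threshold. In all, 5 of these 6 genes rose.

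All 6 growth factor receptor genes, counting the phosphatase gene *Ptprb*, rose, with log2 fold changes from 0.70 to 1.08 and adjusted p between 4.79e-08 and 3.25e-05 by limma. *Tek* had 2964, 2990, 6812 and 5785 reads, a log2 fold change of 1.08 (SE 0.11). *Tie1*, the orphan partner of the TEK receptor, had 752, 1002, 1615 and 1574 reads (log2 fold change 0.88, SE 0.13). *Ptprb*, the phosphatase VE-PTP that acts on TEK, had 13099, 13276, 26024 and 22273 reads and a log2 fold change of 0.87 (SE 0.12). The angiopoietin pathway genes therefore lay at close to 2 times their WT level, with no overlap between the genotypes. Of the VEGF receptor genes, *Flt1* had 5596, 6452, 12915 and 11969 reads (log2 fold change 1.05, SE 0.11), *Kdr*, the main signalling receptor for VEGFA, had 6797, 6853, 13168 and 11489 (log2 fold change 0.85, SE 0.11), and *Flt4*, the receptor for VEGFC, had the smallest change of the group with 5928, 6944, 11106 and 9739.9 reads (log2 fold change 0.70, SE 0.12). KO1 was above KO2 for each of the 6.

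Of the junction, surface and vessel genes, 11 of 13 active members rose, with a median log2 fold change of 0.88. *Plvap* (chr8:71497753-71511806), which encodes the protein of the diaphragms that close endothelial fenestrae, had the second largest change of all members. Its gene body values were 231, 379, 842 and 894, a log2 fold change of 1.55 (SE 0.17) at a limma adjusted p of 1.51e-07. The WT libraries of *Plvap* were less alike than those of most members, but the lower KO value was still above the higher WT value by more than their distance. *Nos3*, the endothelial nitric oxide synthase, had 882, 1243, 2271 and 2124 reads (log2 fold change 1.07, SE 0.13). *Ramp2*, a partner of the adrenomedullin receptor, had the fewest gene body reads of the active members, 48.2, 50, 95.5 and 98.7, and the largest SE (log2 fold change 0.97, SE 0.24). *Mmrn2*, an endothelial matrix protein, had 593, 684, 1182 and 1316 (log2 fold change 0.97, SE 0.13). *Emcn* and *Egfl7* changed by nearly the same amount at very different levels. *Emcn* had 714, 741, 1519 and 1292 reads (log2 fold change 0.95, SE 0.12), and *Egfl7* had 6042, 7722, 13271 and 13032 (log2 fold change 0.94, SE 0.12).

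*Eng* had 4849, 5465, 10020.3 and 8979 gene body reads and a log2 fold change of 0.88 (SE 0.11). *Vwf*, in spite of its low density, had 509, 647, 1099 and 1007 reads over its long gene body and a log2 fold change of 0.87 (SE 0.14). *Esam*, an endothelial adhesion molecule, had 763, 863, 1615 and 1349.8 reads (log2 fold change 0.86, SE 0.13). These 3 genes lay near the median of the members. *Aqp1*, a water channel that cholangiocytes also express, had 1484, 1710, 2868 and 2782 (log2 fold change 0.83, SE 0.11), and *Robo4*, an endothelial guidance receptor, rose by 0.72 on the same scale. The 2 classical pan-endothelial junction genes were the lowest of the group and missed the fold threshold. *Pecam1* had 4112, 4832, 6782 and 6608 reads (log2 fold change 0.59, SE 0.11) and *Cdh5*, which encodes VE-cadherin, had 4524, 5040, 7259 and 6714 (log2 fold change 0.55, SE 0.11), each with both KO libraries above both WT libraries.

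All 7 active transcription factor genes rose. The SOXF genes, which specify endothelial and arterial fate, were the highest of them. *Sox7* had 213, 246, 581 and 472 reads (log2 fold change 1.19, SE 0.16), *Sox17* had 257, 314, 575 and 656 (log2 fold change 1.11, SE 0.15) and *Sox18* had 66.5, 80, 155 and 137 (log2 fold change 0.99, SE 0.22). All 3 are short genes with few gene body reads, yet in each the KO libraries lay near 2 times the WT libraries. *Gata2*, a factor of endothelial and blood progenitor cells, had 139, 164, 295 and 285 reads (log2 fold change 0.94, SE 0.17). *Ets1*, which lymphocytes also express, had 14377, 14754, 27333 and 24949 (log2 fold change 0.84, SE 0.12). Its neighbour on chromosome 9, *Fli1*, another ETS factor, rose by 0.63, and *Maf*, a factor of sinusoidal endothelium and of macrophages, by 0.64. Adjusted p by limma for the 7 genes lay between 1.78e-06 and 0.000915.

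The sinusoidal scavenger and lectin genes had the lowest median of the groups, 0.71, and 8 of 10 rose. *Stab2* (chr10:86841194-87008038), a hyaluronan scavenger receptor, had 35275, 38412, 67559 and 59965 reads, more than any other member, and a log2 fold change of 0.79 (SE 0.13). *Dnase1l3*, a secreted nuclease, had 4183, 4657, 8425 and 6957 reads (log2 fold change 0.79, SE 0.12). *Gpr182*, *Fcgr2b* (an inhibitory Fc receptor), *Clec4g* (a sinusoidal lectin), *Ehd3* (an endocytic trafficking protein), *Oit3* and *Lyve1* (a hyaluronan receptor) rose by between 0.65 and 0.79 on the log2 scale. *Stab1* (chr14:31139017-31168651), the sister scavenger receptor of *Stab2*, had 3782, 4724, 6215 and 5950.2 reads (log2 fold change 0.52, SE 0.12) and missed the fold threshold. *Mrc1*, the mannose receptor, which macrophages also express, was the lowest of the group with 10368, 9585, 15391 and 12341 reads (log2 fold change 0.47, SE 0.12). The 2 genes nonetheless had both KO libraries above both WT libraries, at adjusted p of 8.09e-04 and 0.0031 by limma.

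Promoter-proximal polymerase was also higher at these genes, in livers where most genes had more of it. Of the 42 active members, 34 rose and 0 fell, while 25.8% of all active genes rose and 2.20% fell. In 39 members both KO libraries lay above both WT libraries, a pattern that 61.9% of active genes showed (6.72% had both KO libraries lower, as did 0 members). The median log2 fold change of the members was 1.33 (range 0.22 to 2.13) beside 0.56 over all active genes, a distance of 0.77. When libraries were scaled by median-of-ratios within promoter-proximal regions, which removed the general rise (it brought the median of all active genes close to 0), the members' median was 0.77, and 21 rose where 4.99% of active genes did. On the deposited scale, fewer members rose when any 1 library was left out. The share of all active genes that rose was also lower without KO2, WT2 or WT1, but not without KO1. The members' median log2 fold change was 1.201 without KO2, 1.205 without WT2, 1.391 without WT1 and 1.493 without KO1. The medians of all active genes were 0.373, 0.513, 0.594 and 0.744 in the same order. Summed promoter-proximal reads of the 44 members were 8875, 8299, 21101 and 24320 in WT1, WT2, KO1 and KO2, 2.64 times as high in KO as in WT. The general rise is part of this ratio. Promoter-proximal windows of all genes took 10.3%, 9.38%, 13.6% and 17.0% of the reads on genes in the same order.

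**Figure D3:**
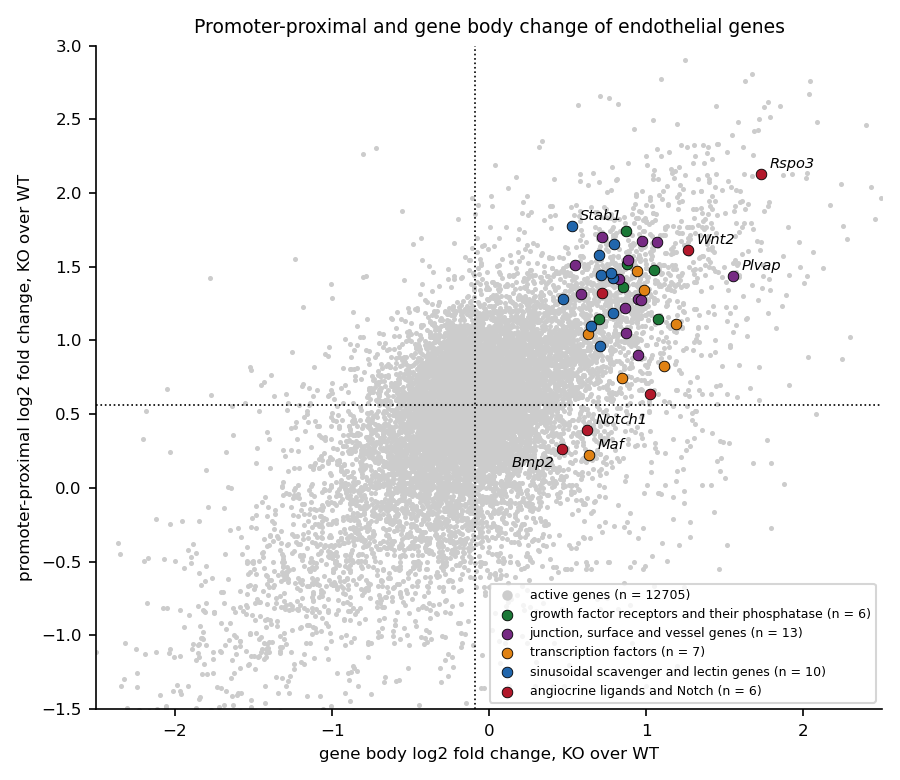
Promoter-proximal (y) against gene body (x) log2 fold change of KO over WT for 12705 active genes (grey) and the 42 active endothelial genes (coloured by group); dotted lines are the medians of all active genes, -0.09 and 0.56, and 114 active genes lie outside the plotted range. The endothelial genes sit to the right of the vertical line, and 39 of 42 sit above the horizontal one, with *Maf*, *Bmp2* and *Notch1* below it.

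The receptor genes all rose in promoter-proximal regions. *Flt1* had one of the strongest peaks of all members with 1033, 1130, 2636 and 3429.8 promoter-proximal reads in WT1, WT2, KO1 and KO2 (log2 fold change 1.48, SE 0.27). *Kdr* had 159, 114, 320.4 and 379.6 (log2 fold change 1.36, SE 0.32), and *Tie1* had 71.1, 80, 155 and 307 (log2 fold change 1.52, SE 0.34), with KO2 well above KO1. *Ptprb* had 32.1, 37, 91.2 and 152 (log2 fold change 1.74, SE 0.37), values that were low for a gene with so dense a body. *Tek* was lower still with 17.2, 15, 37.1 and 36.4 (log2 fold change 1.15, SE 0.42). The counted body of *Ptprb*, 87165 bp, is shorter than its RefSeq span (chr10:116275502-116389538). Reads at a start elsewhere in that span were not in the counted window. The adjusted p of the 6 genes, *Flt4* included, lay between 6.17e-06 and 0.0285 by limma.

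Among the surface and vessel genes, 11 of 13 active members rose. *Aqp1* had 1057, 1068, 2926 and 2749.6 reads in the promoter-proximal window (log2 fold change 1.42, SE 0.27), *Nos3* had 154, 177, 481 and 575 (log2 fold change 1.67, SE 0.31) and *Eng* had 208, 170, 464 and 656 (log2 fold change 1.55, SE 0.31). KO values of these 3 genes were more than 2 times every WT value. *Ramp2* had 48.2, 76, 181 and 211 (log2 fold change 1.68, SE 0.34), and *Esam* had 178, 136, 279 and 474 (log2 fold change 1.22, SE 0.31). *Plvap* (19.5, 9, 36.1 and 39.5), *Emcn* (19.5, 17, 40.3 and 51.6) and *Mmrn2* (17.2, 8, 32.9 and 27.3) rose from very few reads, with SEs of 0.41 to 0.43 on the log2 scale. *Robo4*, *Cdh5* and *Pecam1*, which changed least in gene bodies, rose in this region by 1.70, 1.51 and 1.32 on the log2 scale. *Egfl7* had 32.1, 25, 48.8 and 59.2 reads (log2 fold change 0.90, SE 0.39) and *Vwf* had 10.3, 13, 29.7 and 21.3 (log2 fold change 1.05, SE 0.44), and neither passed the threshold (limma adjusted p = 0.0667 and 0.0551).

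The transcription factor genes were less uniform, and 4 of 7 rose. *Gata2* had 342, 418, 966 and 1140.2 reads (log2 fold change 1.47, SE 0.29), more in its promoter-proximal window than over its whole gene body in every library. *Sox18* also had more reads in the window, 132, 132, 298 and 379.6 (log2 fold change 1.34, SE 0.32), than over its short body. *Sox7* had 57.4, 61, 104 and 159 (log2 fold change 1.11, SE 0.35), and *Fli1* rose by 1.04. *Sox17* (20.7, 23, 32.9 and 47.1) and *Ets1* (104, 111, 168 and 196) had both KO libraries above both WT libraries but adjusted p of 0.1043 and 0.0739 by limma. *Maf* had 75.7, 123, 99.7 and 128 reads, and its WT and KO libraries overlapped.

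All 10 sinusoidal genes rose in promoter-proximal regions, by log2 fold changes of 0.96 to 1.77 and with adjusted p between 2.39e-08 and 0.0291 by limma. *Stab1* had 1266, 1050, 4024 and 3864 reads (log2 fold change 1.77, SE 0.27), the largest change of the group and the smallest adjusted p of all members. *Stab2* had 254, 288, 665 and 796 (log2 fold change 1.43, SE 0.30), and *Dnase1l3* had 101, 65, 262 and 254 (log2 fold change 1.66, SE 0.33). The KO libraries of the 3 genes were close to each other and far above WT. Of the angiocrine genes, 3 of 6 rose. *Rspo3* again led with 37.9, 23, 99.7 and 176 (log2 fold change 2.13, SE 0.37), *Wnt2* had 10.3, 8, 24.4 and 36.4 (log2 fold change 1.61, SE 0.44) and *Dll4* rose by 1.32. *Wnt9b* (10.3, 7, 9.55 and 19.7) and *Bmp2* (32.1, 60, 56.2 and 50.1) had few reads and overlapping genotypes, while *Notch1* (680.4, 622, 766 and 949) had many reads and no overlap but an adjusted p of 0.2781 by limma. The values of *Maf*, *Bmp2* and *Notch1* turned lower in KO under scaling within the region, to log2 fold changes of -0.34, -0.29 and -0.18.

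Across the 42 active members, the promoter-proximal and gene body changes were only loosely related (Pearson's r = 0.33, Spearman's correlation 0.20, across genes of the same 4 libraries, which are not independent replicates). Members with a lower WT density had larger gene body changes (Pearson's r = -0.57 with log2 density, Spearman's correlation -0.57, n = 42 genes), where the WT values enter both measures.

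The pausing index, the promoter-proximal density over the gene body density, relates both regions of a gene. The members' median log2 change was 0.44, beside 0.61 over all active genes, and 14 of 42 members lay above that general median. Of the members, 1 rose and 0 fell (5 and 0 at an unadjusted p below 0.05), where 11.2% of active genes rose and 0.543% fell (limma). The gene that rose was *Stab1*, with pausing indices of 192, 127, 371 and 372 and a log2 change of 1.25 (SE 0.38) at a limma adjusted p of 0.0201. Both KO indices were nearly 2 times the higher WT index. With the replicate number as a block, 0 members rose in limma, where 1.03% of active genes did. *Stab1* was also not past the threshold when any 1 library other than KO1 was left out. A Cochran-Mantel-Haenszel test stratified by replicate, in which reads count as independent, called 14 members higher, where it called 46.0% of active genes. *Stab1*, *Robo4* and *Cdh5* led that list. The direction of the median rested on the scaling, since factors computed within each region gave -0.21 for the members.

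**Figure D4:**
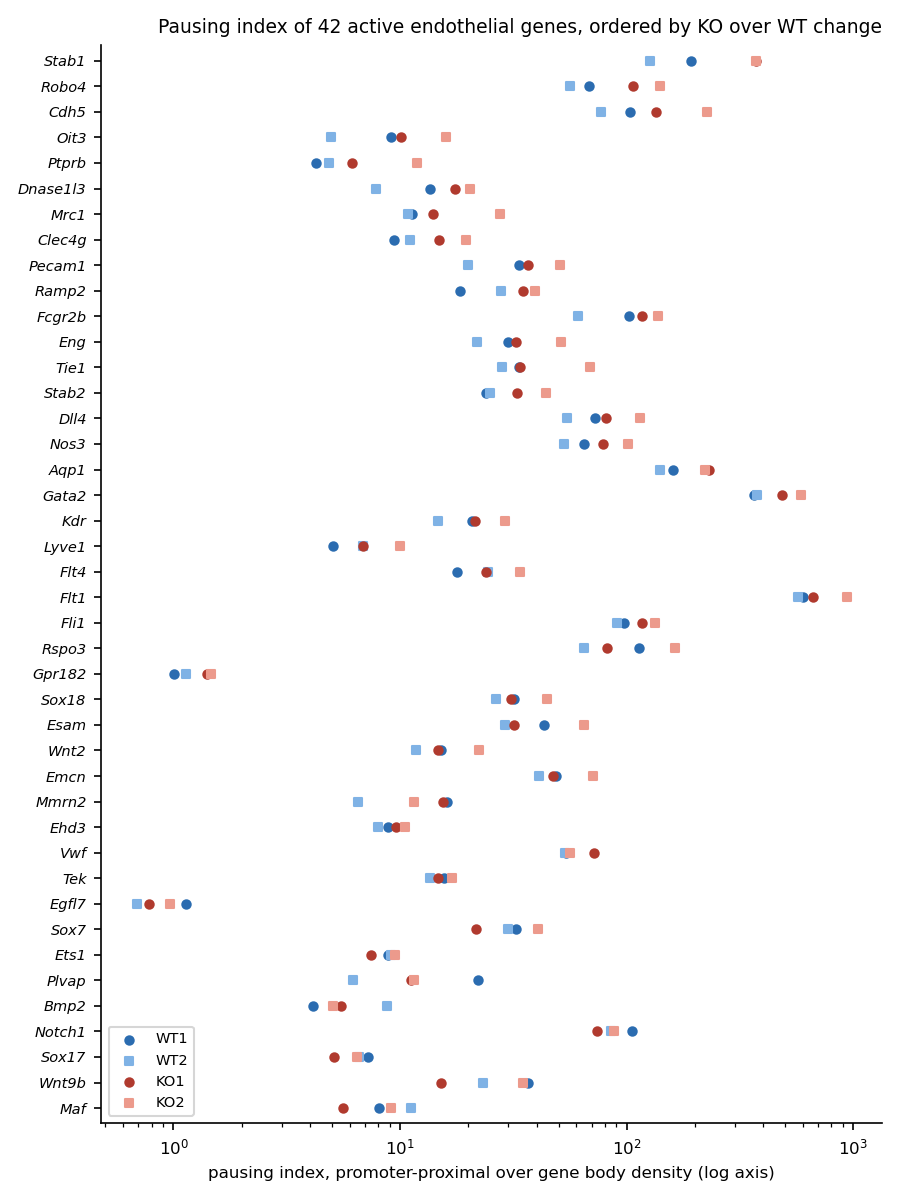
Pausing index (x, log axis) of the 42 active endothelial genes in the 4 libraries, ordered from the largest KO over WT increase at the top (*Stab1*) to the lowest value at the bottom (*Maf*). The indices run from around 1 for *Egfl7* and *Gpr182* to 933 for *Flt1* in KO2, and genotypes overlap in most rows of the lower part.

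By role, all 10 sinusoidal genes and all 6 receptor genes had a pausing index change above 0, as did 88.8% of all active genes. Their medians were 0.70 and 0.48, on either side of the general median of 0.61. The transcription factor genes had a median of -0.08, with 3 of 7 above 0, and the angiocrine genes 0.07, with 3 of 6 above 0. The highest indices in every library belonged to *Flt1* (601, 570.2, 665 and 933) and *Gata2* (363, 376, 483 and 589). The lowest belonged to *Egfl7* (1.13, 0.69, 0.78 and 0.97) and *Gpr182* (1.0, 1.13, 1.41 and 1.46), whose bodies carried polymerase about as densely as their promoter-proximal windows. Neither pair passed the test of a change. Differences between the groups were not tested.

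The deposited list of 2282 transcribed intergenic enhancers, called on reads pooled over the 4 libraries, named a member as the closest gene for 29 enhancers. They belonged to 11 of the 44 members (25%), against 10.9% of active genes. *Ets1* had 8 of them, at 119 to 404 kb from the start used for it, of which 4 are known in FANTOM5, a catalogue of enhancers defined by transcription. That start lies inside the RefSeq span of *Ets1* (chr9:32636241-32757820), whose counted body was 60779 bp. Only 11 active genes in all had 8 or more enhancers. *Fli1*, *Kdr* and *Maf* had 4 each, which 104 active genes (0.819%) reached or exceeded, and the nearest of them lay 20.7 kb from *Fli1*, 34.8 kb from *Kdr* and 55.1 kb from *Maf*. The closest enhancers of all lay 2.54 kb from *Notch1* at chr2:26506360-26511439 and 3.26 kb from *Stab2* at chr10:87011199-87013632 (mm10), and each of these genes had 2. *Egfl7*, *Flt1*, *Gata2*, *Bmp2* and *Sox17* had 1 each.

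The median distance of an enhancer from its closest gene was 74.4 kb for the members and 49.8 kb for the whole list, and 11 of the 29 lay within 50 kb of that gene, against 50.2% of the whole list. Of these 29 enhancers, 7 (24.1%) were in FANTOM5, against 27.7% of the whole list. Links by chromatin contact in 4DGenome named 31 members (70.5%), against 75.8% of active genes. *Rspo3*, *Plvap* and *Wnt2*, the 3 members with the largest gene body changes, were the closest gene of 0 enhancers. The list gives no values of single libraries, so enhancer activity was not compared between the genotypes.

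Other endothelial genes, a separate list of 47 symbols that share no gene with the members, had values close to theirs. Of the 43 that were active, 34 rose and 1 fell in gene bodies, with a median log2 fold change of 0.87. *Cyyr1* had 2109.9, 1977, 4923 and 4187 reads (log2 fold change 1.15, SE 0.11), *Rhoj*, an endothelial small GTPase, had 1214, 1346, 2989 and 2659 (log2 fold change 1.14, SE 0.11), and the semaphorin and VEGF co-receptor gene *Nrp2* had 4289, 4576, 9487 and 8783 (log2 fold change 1.04, SE 0.11). The gene that fell, named here after its values were seen, was *Hhex*, a factor of endothelial progenitors and also of hepatocytes and cholangiocytes, with 1495, 1777, 903 and 917 reads (log2 fold change -0.84, SE 0.12). In promoter-proximal regions 33 of the 43 rose and 1 fell, with a median of 1.28. The latter was *Lmo2*, a partner of endothelial and blood cell factors, whose gene body rose (also named after its values were seen). Its promoter-proximal values were only 2.29, 3, 0 and 0 normalized reads at the counted start, too few to read a change from.

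Markers of the other liver cell types moved in both directions in the same libraries. Of 15 active stellate cell markers, 14 rose in gene bodies and 0 fell, with a median of 1.40, above that of the endothelial genes, and their sums were 11318, 13077, 27117 and 25308 reads. *Rgs5* (235, 262, 1459 and 1349.8), *Colec11* (443, 522, 1618 and 1608) and *Dcn* (689.5, 803, 2437 and 2136) had the smallest p. Of 12 hepatocyte markers, 0 rose and 8 fell, with a median of -0.89 and sums of 448844, 481575, 225679.7 and 223606 reads. *Ass1* (84023, 94440, 18223 and 16270.1), *Apoa1* (9725, 11363, 3192 and 3002) and *Hnf4a* (17104, 17557, 5615 and 6374) led the falls. The Kupffer cell and myeloid markers, some of whose cells share *Mrc1*, *Fcgr2b*, *Stab1* and *Maf* with endothelium, had a median of 0.22, with 1 of 18 rising (*Cybb*) and 0 falling. Their sums were 29867, 30403, 39225 and 32548 reads. Of 8 active erythroid markers, 1 rose and 5 fell, of 4 active cholangiocyte markers, 0 rose and 2 fell, and of 10 lymphocyte markers, 2 rose and 2 fell. No gene of these lists was at 0 in the gene bodies of all libraries. The part of a changed mix of cells in the rise of the endothelial genes was not tested.

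**Figure D5:**
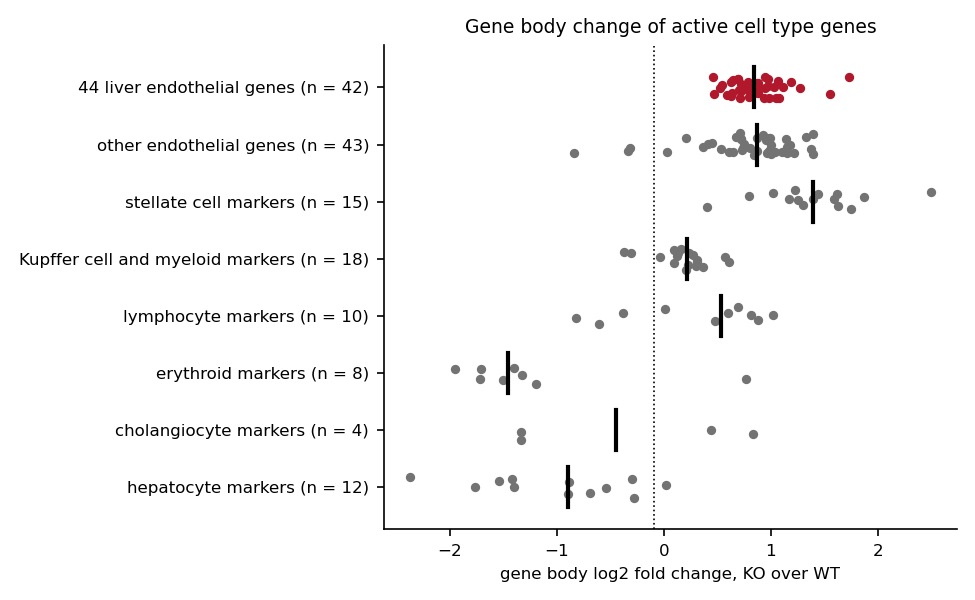
Gene body log2 fold change of KO over WT (x) for the active genes of 8 cell type lists; each point is a gene, black bars are list medians and the dotted line is the median of all active genes, -0.09. The endothelial medians (0.85 and 0.87) lie between those of the stellate (1.40) and Kupffer cell (0.22) lists, and the hepatocyte median (-0.89) lies below the line.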

How the data were processed

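Nascent RNA of liver nuclei was measured by PRO-seq in 2 WT and 2 *Hdac3* KO libraries, grouped by their labels. The authors trimmed reads with cutadapt, aligned them to mm10 with Bowtie2, discarded rRNA reads and poorly mapped reads, and used NRSA to count the rest over 20820 transcripts of RefSeq. The promoter-proximal region was the fullest 50 bp window around the start, on the coding strand. The deposited values of WT2 are counts, since its scaling factor is 1. The deposited values of WT1, KO1 and KO2 are normalized signal, counts multiplied by 1 factor per library, and dividing by the factor made 100% of the 41640 values per library whole (tolerance 0.01). The deposited enhancer list gives positions and distances with no unit of signal, and was made from pooled reads.

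Log2(normalized reads + 1) was compared between KO and WT over 12705 active symbols with limma 3.58.1 (R 4.3.3), using a mean-variance trend and no block. P-values were adjusted by Benjamini-Hochberg over all of them. The log2 pausing index was tested in the same way in place of the Cochran-Mantel-Haenszel test that the study names, which was run as an alternative. Fold changes on this scale understate changes of genes with few reads. Calls needed an adjusted p below 0.05 and an absolute log2 fold change above 0.6. The activity cutoff of 4 reads per kb was applied on the deposited scale, and after scaling to a common total of reads on genes as an alternative. Other alternatives were count tests of the whole reads (edgeR 4.0.16, DESeq2 1.42.0), other scalings, pseudocounts, filters and transcript choices, blocking on the replicate number, and leaving out single libraries. Simulated libraries held 12705 genes, of which 100 changed by 1 log2 unit, 100 by 2 and the others not at all. In gene bodies limma recovered 90% of genes changed by 1 log2 unit and 96% of those changed by 2, and in promoter-proximal regions 1% and 43%. A larger share of genes was called in the measured libraries (25.8% up and 2.20% down in promoter-proximal regions). The Benjamini-Hochberg cutoff was therefore stricter in the simulation, and its shares do not carry over to the measured libraries.

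The members, the 5 role groups and the 10 other lists were chosen with earlier results of these data known, so counts over them carry no test of their own. Any member could be named. The 25 with the largest gene body change are given with every library, the others by range, and from each other list the 3 active genes with the smallest gene body p are named, except for the erythroid, cholangiocyte and lymphocyte lists, which are given by counts because some of their genes are not reported here, and the Kupffer cell list, where only the gene that rose is named. All 44 members were matched to RefSeq by transcript accession. Positions and promoter sequences are those of RefSeq on GRCm38.p6, and promoters were printed where the RefSeq start lay within 20 bp of the GENCODE start of the counted transcript. Other tables of the study and the values of single enhancers were not analysed here.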

Additional observations from a re-analysis of the deposited data

How the results depend on the processing

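The members' gene body increase kept its direction under every alternative run, with a median log2 change from 0.75 to 0.93. With all 4 libraries, 0 members fell and 35 to 42 rose, where 9.06% to 17.0% of active genes rose. The exception was limma without the filter on low values, which called 4 members (42 at an unadjusted p below 0.05) and 1.97% of all symbols higher. Leaving out 1 library gave medians of 0.75 to 0.92. The promoter-proximal count of 34 was 21 with median-of-ratios and 21 with TMM factors computed within the region, 0 in limma without the filter (34 at an unadjusted p below 0.05), 10 to 28 when 1 library was left out, 35 with edgeR and 28 with DESeq2, and the median of 1.33 became 0.77 and 0.76 with the within-region factors. Of all active genes, 4.99% and 5% rose with these factors in the same order, 25.6% with edgeR and 21% with DESeq2. Without the filter, 0 of all symbols rose. With any 1 library left out, the members' median stayed above that of all active genes. With the within-region factors, in the same order, the promoter-proximal log2 changes of *Notch1* were -0.18 and -0.18. The changes were -0.34 and -0.34 for *Maf* and -0.29 and -0.29 for *Bmp2*. When 1 library was left out they ran from -0.12 (without WT1) to 0.57 (without WT2) for *Maf* and from -0.17 to 0.71 for *Bmp2*. The pausing index count of 1 was 0 with median-of-ratios and with TMM within regions, 0 without the filter (5 at an unadjusted p below 0.05), 3 with a pseudocount of 10, 2 with the scaled activity cutoff, 14 with the Cochran-Mantel-Haenszel test, and 0 to 7 when 1 library was left out. Of all active genes, 18.8% rose in pausing index with a pseudocount of 10, 15% with the scaled cutoff and 46% with the Cochran-Mantel-Haenszel test. With median-of-ratios and TMM within regions, 0.0157% and 0.0315% of them rose. With any 1 library left out, the members' median pausing index change lay below that of all active genes. The members' median pausing index change reversed to -0.21 under both within-region scalings. The cause of these shifts was not tested. Among single members, gene body results stayed on the same side of the threshold in 649 of the repeats, became weaker in 43, 34 of them without the filter, and stronger in 20.

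Same-numbered libraries did not deviate together (correlation 0.02 in gene bodies, -0.11 in promoter-proximal regions), so the shared number is not taken as a pairing. The replicate block gave 37 members in gene bodies (10.4% of active genes), 31 in promoter-proximal regions (13.9%) and 0 for the pausing index (1.03%). A crossed pairing, chosen after the data were seen, gave 37 (10.5%), 37 (38.3%) and 3 (32.4%). With the depth of these libraries, members with under 50 promoter-proximal reads had an SE of up to 0.47 on the log2 scale. Log2 changes of 1.05 for *Vwf* and 0.64 for *Wnt9b* did not pass the threshold there by limma, while 1.15 for *Tek* did.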

Other observations

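Genes on the other side of endothelial signalling were examined as lists of their own. Of 17 active genes for ligands of endothelial receptors, 9 rose and 1 fell in gene bodies (limma), with a median log2 fold change of 0.60. *Bmp10*, a ligand of endoglin and ALK1 that liver stellate cells make, had 110.1, 110, 294 and 290.0 gene body reads in WT1, WT2, KO1 and KO2 (log2 fold change 1.40, SE 0.18). *Sema3f*, a ligand of NRP2, had 829.5, 1069, 2001 and 2099.8 reads (log2 fold change 1.12, SE 0.13), and the Notch ligand gene *Jag1* had 624, 759, 1384 and 1333 (log2 fold change 0.98, SE 0.13). The gene that fell, named after its values were seen, was *Angptl4*, with 2559.7, 1557, 1082 and 1344 reads (log2 fold change -0.73, SE 0.16).

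Of 8 active BMP-SMAD target genes, 3 rose and 1 fell, with a median of 0.52. *Smad6* had 6549, 7221, 11620.0 and 10739 reads (log2 fold change 0.70, SE 0.11) and *Id3* had 246, 300, 486 and 524 (log2 fold change 0.89, SE 0.15), both also known endothelial BMP targets, and *Bambi* was the other gene that rose. *Atoh8*, a BMP target of hepatocytes, fell with 1284, 1346, 750.0 and 662 reads (log2 fold change -0.90, SE 0.12). Of 16 pericentral Wnt target genes, 2 rose and 2 fell, close to the shares of all active genes that rose (10.4%) and fell (11.4%), with a median of -0.27 beside -0.09 over all active genes. By the adjusted p of limma alone, 3 were higher and 6 lower, where 17.0% and 22.1% of active genes were. *Nkd1*, a feedback inhibitor of Wnt signalling, had 1170.3, 1546, 3258 and 3067 reads (log2 fold change 1.23, SE 0.12), and *Oat*, ornithine aminotransferase, had 867, 1619, 3353 and 3814 (log2 fold change 1.59, SE 0.17). *Lgr5*, the receptor for R-spondins, fell with 1466, 1256, 702 and 752 reads (log2 fold change -0.90, SE 0.12), while *Rspo3* rose in the same libraries. The other gene of this list that fell was *Gulo*.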
